A study of Mus musculus with 6 samples.

Results

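The beta-catenin destruction complex and the Gsk3 kinases were examined as 9 genes: the kinases Gsk3a, Gsk3b and Csnk1a1, the scaffolds Apc, Axin1 and Axin2, the substrate Ctnnb1, and the ligase receptors Btrc and Fbxw11. Every probe set that the platform annotation assigned to exactly 1 gene, that gene being among the 9, was taken, which gave 33 of the 45101 probe sets on the array, for 9 of the 18195 genes it names. None of the 9 genes also stood on a probe set shared with other genes. Of the 33 probe sets, 25 were bright enough to be tested, and each of the 9 genes had at least 1 of them.

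Expression was measured on Affymetrix mouse arrays in total RNA from embryonic stem cells of 2 genotypes, with 3 arrays each. The first was labelled Gsk-3a-/-; Gsk-3b-/- (DKO), a loss by label of each gene of the kinase Gsk-3 (glycogen synthase kinase-3), and the second was wild-type of the line named E14K. Both were grown without feeders on gelatin in serum medium with the leukaemia inhibitory factor product ESGRO. Nothing in the labels tells if each array had a culture of its own, how many clones the DKO line came from or how its alleles were made. The p-values therefore measure the spread between these arrays, which may be technical. Effects of Gsk-3 loss and other differences between the lines cannot be told apart.

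In cells without a Wnt signal, APC and the axins hold beta-catenin beside casein kinase 1 alpha, which phosphorylates it first, and GSK-3, which adds further phosphates. The F-box proteins encoded by Btrc and Fbxw11 read these phosphates and pass beta-catenin to the proteasome. A Wnt signal, or loss of both GSK-3 kinases, stops this step, beta-catenin accumulates as protein and acts with TCF/LEF factors on transcription, and Axin2 is a well-known direct target that feeds back on the pathway. An expression array reads RNA, so protein level, phosphorylation and the assembly of the complex were not measured.

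Of the 9 genes, Axin2 was the one that rose in DKO cells, 11.1-fold (95% interval 7.68 to 16.1, n = 3 per genotype). No tested probe set of the other 8 genes passed the test. This was limma with Benjamini-Hochberg adjustment over all 20841 tested probe sets and a threshold of 0.05. It took no account of the replicate numbers, which paired the arrays. With the replicate number as a block Gsk3a also passed, lower in DKO (limma, adjusted p = 0.00646), where 9.57% of all tested probe sets passed. In the fit without a block, 1 of the 25 tested probe sets rose, 0 fell and 24 did not pass. Over all tested probe sets 3.24% passed, 1.31% higher and 1.93% lower in DKO, so 1 in 25 (4%) is near the share of all probe sets. At an unadjusted p under 0.05 there were 3 of 25 (Axin2, Gsk3a and Btrc), where all tested probe sets gave 13.0%. Leaving out Axin2, 18 of the 24 differences were below 0 and 6 above, where 52.2% of all tested probe sets were below 0. Many of the 24 probe sets read the same gene as another, so the count is not of independent values. The median of the 24 differences was -0.15 on the log2 scale, where all tested probe sets had a median of -0.02. Their median size without sign was 0.22 log2 units against 0.25 over all tested probe sets.

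**Figure D1:**
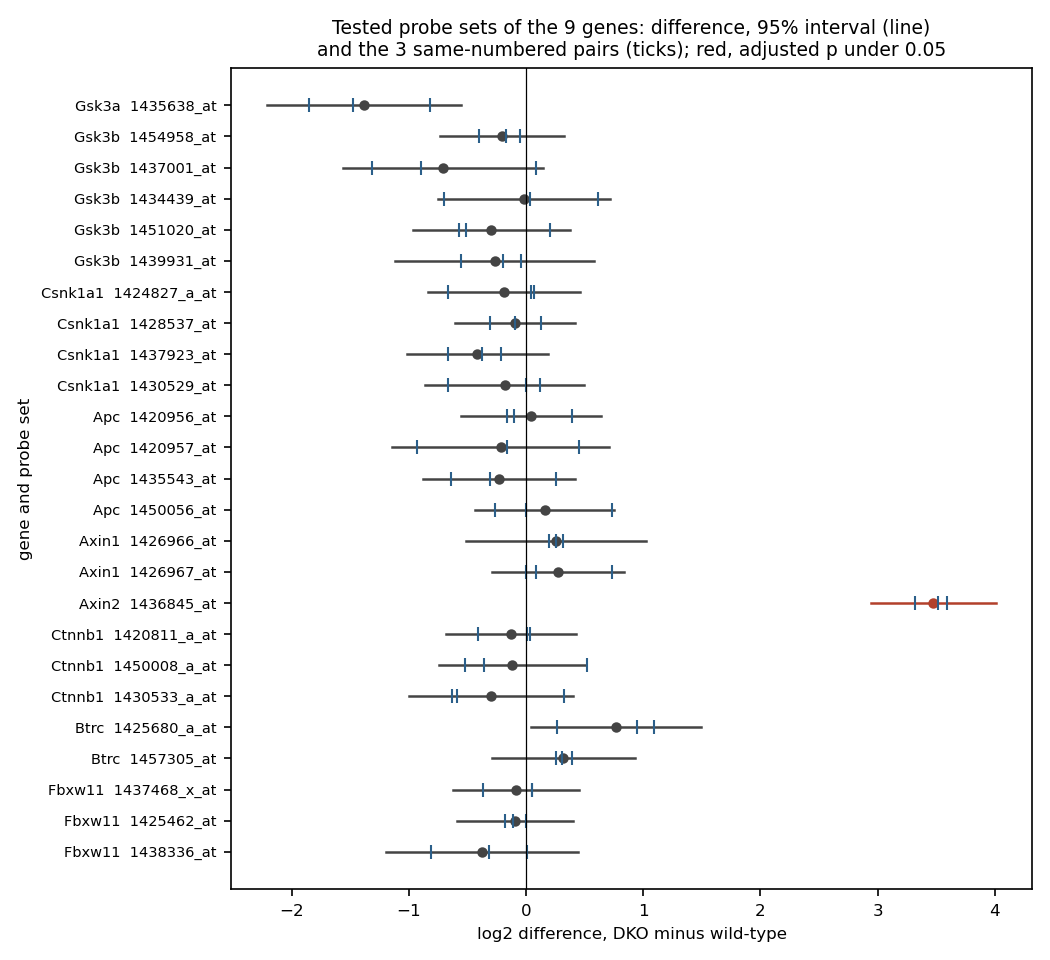
Log2 difference, DKO minus wild-type, for each of the 25 tested probe sets of the 9 genes (points), with its 95% interval (lines) and the differences of the 3 same-numbered pairs of arrays (ticks). Axin2 lies at 3.47, and the other 24 lie between -1.38 (Gsk3a) and 0.77 (Btrc).

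The number of arrays limits the precision of every value. Replicate 3 stood apart in both genotypes, with 9 hybridisation spike-in probe sets at a mean log2 signal of 9.50 and 9.91 and at 1.73 to 1.85 on the other 4 arrays. The 3' to 5' signal ratio, averaged over the control transcripts of actin, Gapdh and the transferrin receptor and reading RNA integrity, was 1.83 to 2.44 log2 units on the DKO arrays and 1.64 to 2.30 on the wild-type arrays. Embryonic stem cell markers were present in both genotypes, where 12 of 12 were tested, 0 passed, and their summed intensity was 32830 to 36514 in DKO and 34767 to 37237 in wild-type cells. Of 12 fibroblast markers 7 were tested, with differences of -1.34 (Col1a1) to 0.75 (Col1a2) and a median of 0.15, and 0 passed (summed intensity 1439 to 2277 in DKO, 1015 to 1670 in wild-type), and Col1a1 fell with the replicate number as a block (adjusted p = 0.00506). Of the 5 untested ones, Lum read 2 to 3 on every array and the others at most 36. Of 9 primitive endoderm markers 7 were tested, with differences of -1.45 (Dab2) to 1.26 (Foxa2), a median of 0.95 and 5 of 7 above 0, and 0 passed (summed intensity 2967 to 5494 in DKO, 1354 to 4360 in wild-type), and the untested Afp and Ttr read at most 7 and 18. Of 7 neural progenitor markers 4 were tested, with differences of -3.47 to -0.71. Pax6 alone passed and fell, by 3.47 log2 units, and with the block Nes and Tubb3 also fell (adjusted p = 0.00446 and 0.0329). The summed intensity of the 4 was 96 to 342 in DKO and 349 to 599 in wild-type cells, and Neurog2 read 3 on every array. Pdgfra was counted in both the fibroblast and the primitive endoderm list. It read 972, 998 and 1859 in DKO and 1010, 1112 and 439 in wild-type cells. On every array it was the brightest tested gene of the fibroblast list, so it weighed heavily in that sum. What part these signals play in the results was not tested.

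The kinases came first, since Gsk3a and Gsk3b are the genes that the DKO cells lack by their label. Gsk3a, which encodes GSK-3 alpha, had 1 probe set (1435638_at), with intensities of 145, 135 and 66 on the DKO arrays and 403, 238 and 239 on the wild-type arrays. All DKO arrays lay below all wild-type arrays. Such a gap was seen in 16.7% of all tested probe sets, with DKO lower in 9.17%, and the DKO signal of Gsk3a was above the filter of 16 on every array. DKO cells read 0.383 of the wild-type intensity (95% interval 0.217 to 0.679), and the difference did not pass (limma, adjusted p = 0.0942). It passed with the replicate number as a block (adjusted p = 0.00646), where 9.57% of all probe sets passed, 4.31% higher and 5.26% lower in DKO, and with replicate 3 against replicates 1 and 2 as a block (adjusted p = 0.0223), where 5.36% passed and 3.09% were lower. The same-numbered pairs differed by -1.47, -0.82 and -1.86 log2 units, and the widest gap was that of replicate 3, which also held the lowest DKO array. Over replicates 1 and 2 alone the difference was -1.15 (adjusted p = 0.184).

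Gsk3b, which encodes GSK-3 beta, had 6 probe sets, of which 5 were tested and 0 passed, and all 5 differences were below 0. The brightest (1454958_at) read 1122, 1495 and 1472 in DKO and 1481, 1547 and 1655 in wild-type cells. The genotypes overlapped by 1 array, and the fold of 0.867 had a 95% interval of 0.601 to 1.25. Probe set 1437001_at had the largest difference among the 5, -0.71 (interval -1.56 to 0.15, adjusted p = 0.508). It read 626, 247 and 512 in DKO and 589, 613 and 954 in wild-type cells, and its first pair went the other way by 0.09. The other 3 differences were -0.30, -0.27 and -0.02, and the sixth probe set read 5 to 10 on every array and was not tested. RNA read by Gsk3b probe sets was thus still present in cells labelled as lacking the gene. Probe positions were not used here, so signal from transcript left outside a targeted part cannot be told apart from intact transcript, and for either gene the labels are not checked by it.

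On their brightest probe sets the change of Gsk3a differed from that of Gsk3b by -1.18 log2 units. The within-array gap between their brightest probe sets was -2.95, -3.47 and -4.48 in DKO and -1.88, -2.70 and -2.79 in wild-type cells. These values did not overlap, and an exact two-sided permutation test gave p = 0.1, the smallest that 3 against 3 arrays allow (0.15 adjusted over the 3 pairs of related genes compared this way).

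Csnk1a1 encodes casein kinase 1 alpha, the kinase that primes beta-catenin for GSK-3. It had 5 probe sets, of which 4 were tested and 0 passed. The brightest (1424827_a_at) read 2424, 4348 and 4401 in DKO and 3852, 4151 and 4277 in wild-type cells. Its DKO replicate 1 was low, and the other 2 DKO arrays lay above every wild-type array. The 4 differences ran from -0.42 to -0.09 log2 units, with adjusted p-values of 0.623 to 0.938. The probe set with the largest one, 1437923_at, had an interval of -1.02 to 0.18. Its same-numbered pairs were all below 0, at -0.67, -0.37 and -0.21. The untested probe set read 10 to 15.

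**Figure D2:**
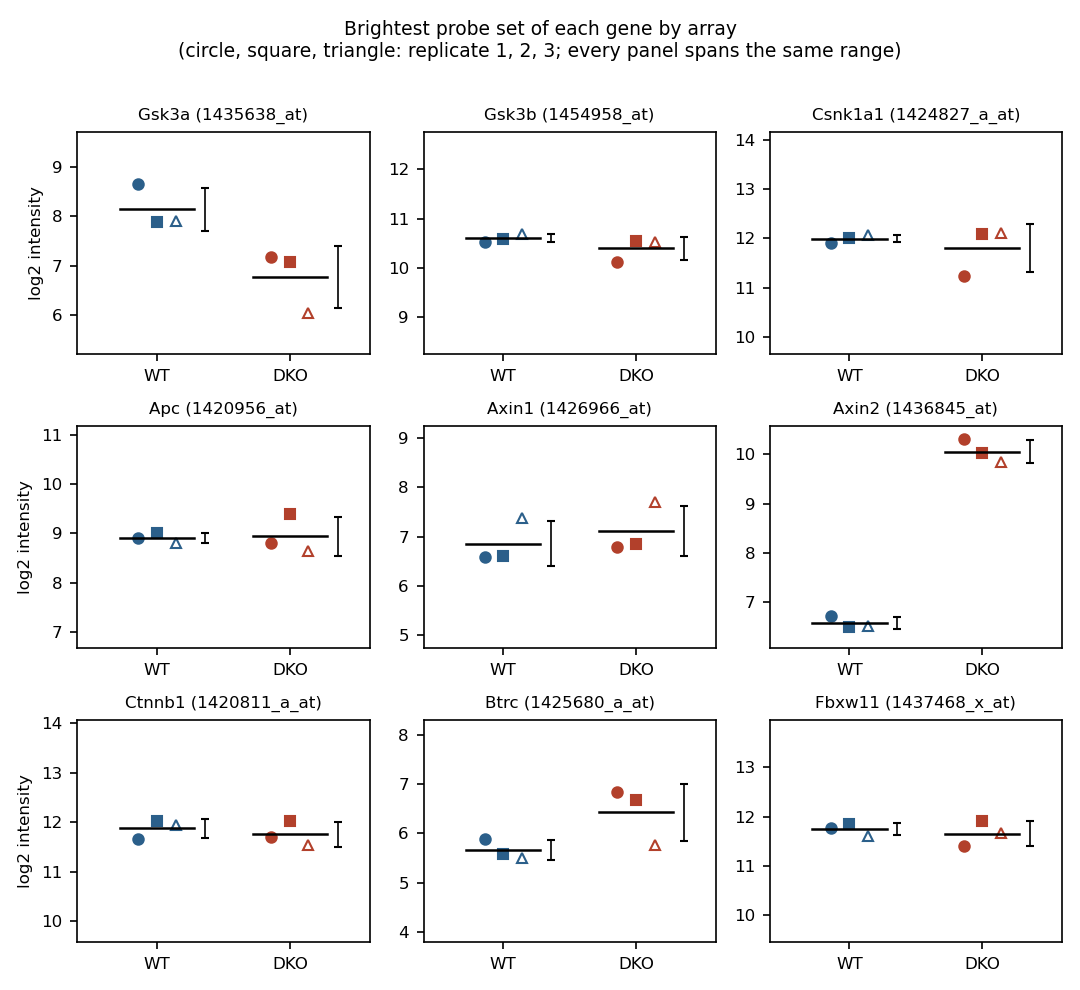
Log2 intensity of the brightest tested probe set of each of the 9 genes on every array, wild-type in blue and DKO in red, with bars for the mean and for 1 SD (n = 3); circles, squares and open triangles are replicates 1, 2 and 3, and all panels span the same range. Axin2 separates fully and upwards, Gsk3a separates downwards, and the genotypes overlap in the other 7 panels.

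Among the scaffolds the paralogs Axin1 and Axin2 stood far apart. Axin1, the constitutively made scaffold of the complex, read 110, 116 and 208 in DKO and 96, 97 and 167 in wild-type cells on its brighter probe set (1426966_at). DKO was higher in each same-numbered pair, by 0.20, 0.26 and 0.32 log2 units, while both replicate 3 arrays lay above the other 4. The difference of 0.26 had an interval of -0.51 to 1.03 and did not pass (adjusted p = 0.863, and 0.525 in the blocked fit). The dim probe set 1426967_at, at 12 to 20, differed by 0.27 (adjusted p = 0.775).

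Axin2, the inducible paralog, read 1265, 1039 and 918 in DKO and 105, 91 and 92 in wild-type cells on probe set 1436845_at. The lowest DKO array was far above the highest wild-type array, a separation in that direction seen in 7.57% of all tested probe sets. The mean log2 intensity was 6.58 ± 0.11 on the wild-type arrays and 10.06 ± 0.23 on the DKO arrays (SD, n = 3). The pairs differed by 3.59, 3.51 and 3.32 log2 units, so the rise in replicate 3 was of like size to that in replicates 1 and 2. With each array left out in turn the adjusted p was at most 0.00434. By size of the rise this probe set ranked 28 among the 20841. The other Axin2 probe set (1421341_at) lay under the filter on every array, at 9, 12 and 11 in DKO and 3, 4 and 4 in wild-type cells, and was not tested.

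The change of Axin2 exceeded that of Axin1 by 3.22 log2 units. The within-array gap, Axin2 minus Axin1, was 3.52, 3.16 and 2.14 in DKO and 0.13, -0.09 and -0.86 in wild-type cells, which did not overlap. The exact two-sided permutation p was 0.1, again the smallest possible (0.15 adjusted). The upper bound of the interval of Axin1, 1.03, was also below the lower bound of Axin2, 2.94.

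Promoter sequences were at hand for 5 of the 9 genes from RefSeq (GRCm38.p6), among them Axin2 and both Gsk3 genes. They are shown because Axin2 rose while the label names the Gsk3 genes as the targeted ones, and because TCF/LEF factors bind the letters CTTTGA and longer forms of it. Each line holds the 250 bases before the annotated start site, 5' to 3' on the strand of the gene, and capitals mark CTTTGA on either strand, which reads TCAAAG on the other one. Axin2 lies at chr11:108920099-108920348 (+), Gsk3a at chr7:25237852-25238101 (-) and Gsk3b at chr16:38088751-38089000 (+).
Axin2: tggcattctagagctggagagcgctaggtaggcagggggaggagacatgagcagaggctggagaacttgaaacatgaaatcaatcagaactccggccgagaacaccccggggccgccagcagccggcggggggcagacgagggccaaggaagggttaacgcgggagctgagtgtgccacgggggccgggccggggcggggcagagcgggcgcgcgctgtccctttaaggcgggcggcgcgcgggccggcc
Gsk3a: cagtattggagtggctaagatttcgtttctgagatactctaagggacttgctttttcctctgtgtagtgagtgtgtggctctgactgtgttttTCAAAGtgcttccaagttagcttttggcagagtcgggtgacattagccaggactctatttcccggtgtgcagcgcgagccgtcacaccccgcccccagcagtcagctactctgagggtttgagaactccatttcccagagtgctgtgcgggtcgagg
Gsk3b: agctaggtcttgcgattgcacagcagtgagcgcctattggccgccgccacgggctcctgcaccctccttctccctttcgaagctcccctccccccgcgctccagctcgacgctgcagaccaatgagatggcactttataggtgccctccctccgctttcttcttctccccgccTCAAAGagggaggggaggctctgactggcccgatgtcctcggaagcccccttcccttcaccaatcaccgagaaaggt

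The Axin2 window had no match to CTTTGA, and Gsk3a and Gsk3b had 1 each, beginning 157 and 77 bases before the start site. Of 32851 promoter windows of this length 13.8% held CTTTGA. The longer CTTTGAA, searched on both strands and always containing the shorter form, was in 4.46% of windows and, among the 9 genes, in that of Gsk3a. The form CTTTGATG was in 0.907% of windows and in none of the 6 windows of these genes. A match is a description of letters and says nothing on binding, and TCF/LEF sites outside the window were not searched. The Axin2 window held 24 CpG sites, more than 88.0% of all windows, and those of Gsk3b and Gsk3a held 15 and 9.

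Apc encodes the large scaffold that carries beta-catenin in the complex and had 4 probe sets, all tested, with 0 passing. The brightest (1420956_at) read 445, 673 and 398 in DKO and 478, 512 and 446 in wild-type cells. DKO held both the highest and the lowest arrays. The difference was 0.04 log2 units (interval -0.56 to 0.64, adjusted p = 0.979). The other 3 probe sets differed by -0.23, -0.22 and 0.16, with adjusted p-values of 0.853 to 0.912. On 1420957_at both replicate 3 arrays, at 345 and 387, lay above the other 4, which read 151 to 304.

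The substrate Ctnnb1 encodes beta-catenin, and its 3 probe sets differed by -0.30 to -0.12 log2 units. The brightest (1420811_a_at) read 3303, 4171 and 2967 in DKO and 3232, 4160 and 3944 in wild-type cells. Pairs 1 and 2 were nearly equal, at 0.03 and 0.0038 log2 units, and the third pair differed by -0.41. The interval was -0.68 to 0.43 (adjusted p = 0.916), which leaves room for a fold between 0.624 and 1.35. The second probe set (1450008_a_at) read 1576, 1116 and 1408 against 1097, 1598 and 1803, with pair 1 at 0.52 and pairs 2 and 3 at -0.52 and -0.36. The sign on these 2 probe sets therefore depended on which arrays were used.

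Btrc and Fbxw11 encode the closely related F-box proteins beta-TrCP1 and beta-TrCP2, which recognise phosphorylated beta-catenin. Btrc was above 0 on both of its tested probe sets. The brighter (1425680_a_at) read 114, 102 and 54 in DKO and 59, 48 and 45 in wild-type cells. DKO replicates 1 and 2 were above every wild-type array, and DKO replicate 3 fell inside the wild-type range. The difference was 0.77 log2 units, a fold of 1.70 (interval 1.03 to 2.81), and did not pass (adjusted p = 0.337, and 0.0719 in the blocked fit). The pairs differed by 0.95, 1.09 and 0.26. The dimmer 1457305_at read 21, 31 and 25 against 16, 25 and 21, with pairs at 0.39, 0.31 and 0.25 (adjusted p = 0.751). The 3 untested Btrc probe sets read 2 to 12.

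Fbxw11 went the other way on all 3 tested probe sets, by -0.37 to -0.09 log2 units, and 0 passed. The brightest (1437468_x_at, a suffix that Affymetrix gives where probes can match other sequences) read 2704, 3839 and 3258 in DKO and 3491, 3702 and 3137 in wild-type cells. Probe set 1425462_at had the narrowest interval among the tested probe sets of the 9 genes, -0.59 to 0.40, with 2392, 2629 and 2278 against 2717, 2633 and 2455. The 2 untested Fbxw11 probe sets read 3 to 10. The change of Btrc exceeded that of Fbxw11 by 0.85 log2 units on their brightest probe sets, and by 1.32, 1.04 and 0.21 in the same-numbered pairs. The exact two-sided permutation p was 0.2 (0.2 adjusted), where 0.1 is the smallest possible, so this test could not decide whether the paralogs differ.

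For the 24 probe sets other than that of Axin2 the intervals set how large a missed change could be. In 15 of them the 95% interval lay inside a 2-fold change in both directions. The test was also run on simulated data with the spread of these arrays, few changed probe sets and no replicate effect. It recovered 6 of 50 changes of 1 log2 unit and 49 of 50 changes of 2 log2 units. A change near 2-fold would therefore mostly not pass the fit without a block. For those 15 probe sets the intervals nevertheless left out a 2-fold change in signal. Some of them were dim, such as Apc 1450056_at and Axin1 1426967_at, which read 12 to 20, near the filter of 16. Other probe sets of these genes had wider intervals, down to -1.14 for Apc 1420957_at and up to 1.03 for Axin1 1426966_at. A 2-fold change in the RNA of such genes is therefore not left out.

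Replicate 3 stood apart in both genotypes no more often in the 9 genes than over all tested probe sets. Both replicate 3 arrays lay above the other 4 arrays in 3 of the 25 probe sets (1 each of Gsk3b, Apc and Axin1) and below them in 0, where 15.3% and 12.7% of all tested probe sets did so.

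**Figure D3:**
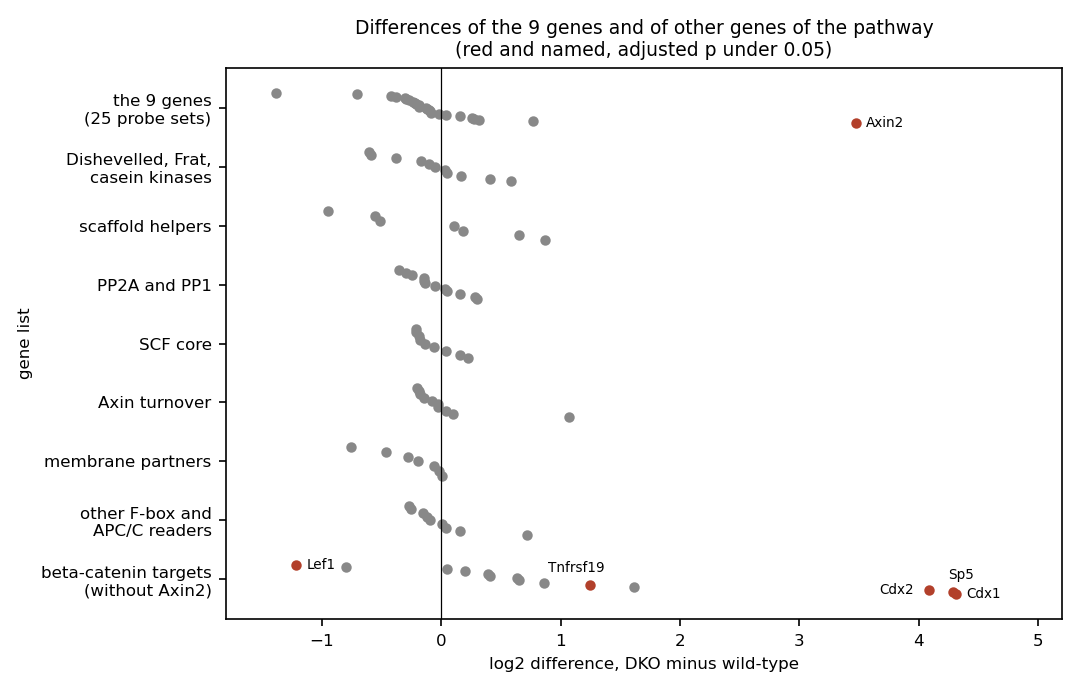
Log2 difference, DKO minus wild-type, of the 25 tested probe sets of the 9 genes and of the other genes of the pathway by list, with 1 probe set per gene in the lists. Red points passed the test: Axin2 among the 9 genes, and Cdx1, Sp5, Cdx2, Tnfrsf19 and Lef1 among the beta-catenin targets.

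Genes that work with the complex were followed in 7 lists, without the 9 genes themselves. Of 76 genes written 65 were tested, and 0 rose and 0 fell by limma. Over all 10496 tested genes 4.13% passed, 1.64% higher and 2.5% lower in DKO. An unadjusted p under 0.05 was found for 7 of the 65, where 13.0% of all tested probe sets had one. With the replicate number as a block 2 rose (Siah2 and Dixdc1) and 1 fell (Csrnp1), where 10.7% of all genes passed, 5.07% higher and 5.63% lower. The median difference of the 65 was -0.07 log2 units, and that of all tested genes -0.0025.

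Among 11 tested genes of the Dishevelled, Frat and casein kinase list, differences ran from -0.61 to 0.59. The lowest was Frat1, which binds GSK-3 and keeps it from Axin, at 11, 15 and 23 in DKO and 22, 19 and 32 in wild-type cells (adjusted p = 0.528). Of the 7 genes in the scaffold helper list the largest difference was that of Csrnp1, a gene known to be induced by AXIN1. It read 139, 129 and 112 in DKO and 315, 259 and 176 in wild-type cells, a difference of -0.95 without overlap (adjusted p = 0.134; 0.0219 with the block). Dixdc1, which shares the DIX domain of axins and Dishevelled and was named after its values were seen, read 82, 49 and 67 against 50, 20 and 44 (adjusted p = 0.368; 0.0379 with the block).

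The phosphatase and ligase lists had the narrowest spread. The 12 tested subunits of PP2A and PP1, phosphatases that act against these kinases, lay between -0.36 and 0.30, with Ppp2r5a lowest (adjusted p = 0.65). The 9 tested genes of the SCF ligase core and its ubiquitin route, which carry out what Btrc and Fbxw11 direct, lay between -0.21 and 0.23, with Cand1, which exchanges F-box proteins on the cullin, highest (adjusted p = 0.809).

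Axin protein is turned over through tankyrases and Rnf146. A list of these and other enzymes, not all of that route, had 10 tested genes. Tnks and Tnks2, the tankyrases that mark axins, differed by -0.19 and -0.20, and Rnf146, the ligase that reads the mark, by 0.04. Siah2, another ubiquitin ligase, read 69, 63 and 37 in DKO and 27, 22 and 29 in wild-type cells, without overlap. Its difference of 1.07 did not pass (adjusted p = 0.11; 0.0307 with the block; 0.0399 without DKO replicate 3). Of 7 membrane partners of beta-catenin, Ctnnal1, related to alpha-catenin, was lowest at -0.75 (adjusted p = 0.269). Of 9 other readers of phosphorylated or otherwise marked substrates, Fbxw9 was farthest from 0, at 0.72 (adjusted p = 0.347).

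Targets of beta-catenin passed in both directions. Without Axin2, 22 were written, 14 tested, 4 rose, 1 fell and 9 did not pass, where 1.64% of all tested genes were higher and 2.5% lower. The list was written with earlier results of these data known. Cdx1, 1 of those that rose, was tested only through its DKO arrays, its wild-type arrays all being under the filter. These counts are therefore a description and no test of the list. The median difference was 0.65 log2 units. Sp5, a zinc-finger repressor, read 830, 404 and 278 in DKO and 28, 25 and 18 in wild-type cells, a rise of 4.28 (adjusted p = 0.000794). Cdx2, a caudal homeobox gene, read 1307, 2073 and 1920 against 99, 104 and 103. Its paralog Cdx1 read 122, 101 and 114 against 5, 4 and 9, at least 7-fold higher when the wild-type arrays are set to the filter. In these 3 genes, as in Axin2, the lowest DKO array was far above the highest wild-type array.

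Tnfrsf19, a TNF receptor family member, read 297, 307 and 302 in DKO and 102, 159 and 128 in wild-type cells, a rise of 1.24 (adjusted p = 0.0289). Without any 1 of the 6 arrays it did not pass (adjusted p = 0.0578 to 0.106). Lef1, the TCF/LEF factor that was the 1 to fall, read 574, 670 and 600 against 1158, 1634 and 1521 (adjusted p = 0.0287; 0.0362 to 0.148 without 1 array). With the block Id2 also fell (adjusted p = 0.0435), and the count was then 4 up and 2 down, where 5.07% of all genes were higher and 5.63% lower. Dkk1, a secreted Wnt inhibitor, had the largest difference among those that did not pass, 1.61, at 615, 239 and 741 in DKO and 209, 242 and 75 in wild-type cells (adjusted p = 0.196, and 0.0693 in the blocked fit), and its genotypes overlapped. Some other inhibitors that beta-catenin is known to induce were too dim to test: Nkd1 and Nkd2 read at most 19 and 10, and Rnf43 at most 12. Znrf3, a ligase that removes Wnt receptors, differed by 0.41 (adjusted p = 0.646) and Notum, a secreted Wnt-inactivating enzyme, by 0.65 (adjusted p = 0.51).

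The probe sets most like that of Axin2 over the 6 arrays were found among 17792 tested single-gene ones by the root mean square difference of log2 values, each centred on its own wild-type mean. They belonged to Scara5, Serpinb6b, Scn2b, Flvcr2 and Nt5e, at 0.26, 0.26, 0.28, 0.29 and 0.31 log2 units. Nt5e, the ectonucleotidase CD73, read 1929, 1415 and 1122 in DKO and 197, 181 and 126 in wild-type cells. Scara5, Serpinb6b and Scn2b were under the filter on every wild-type array. Those most like Gsk3a were Tlr3, Gramd3, Oas3, Plvap and Hspa4l, at 0.16 to 0.21. Of these Plvap and Hspa4l passed (adjusted p = 0.047 and 0.0226), and all of them but Gramd3 were at or under 16 on every DKO array. Likeness here is of 6 values that all share the same arrays, and no test was made of it.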

How the data were processed

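The authors deposited 1 intensity per probe set and array as whole numbers. Per the submitters' processing notes, the tools were R 2.8.0, GCRMA 2.14.1, limma 2.16.5 and GCOS, with no roles given. A genome build is not given there. The values were taken as linear and converted to log2 here with no pseudocount. Rounding makes low values coarse. Log2 values of the deposited intensities were compared in R 4.3.3 with limma 3.58.1 (two-sided moderated test of lmFit and eBayes, Benjamini-Hochberg over 20841 probe sets with log2 of at least 4 on at least 3 of the 6 arrays, controls left out, threshold 0.05). Intervals are 95%, moderated and from the fit without a block. Of 45101 probe sets, 34958 had 1 gene, 932 several and 9211 none, and symbols were updated through gene identifiers (34754 matched). List genes were read on their brightest tested probe set by mean.

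The 9 genes and the lists were chosen with earlier results of these data known. All probe sets of the 9 genes are covered, singly or within a range. Named are up to 4 passing genes per list or else the 1 with the largest difference. Also named are the 5 nearest patterns to Axin2 and Gsk3a, leaving out clone-named and predicted genes. Lef1, Dixdc1, Id2, Tnks, Tnks2, Rnf146, Znrf3, Notum, Nkd1, Nkd2, Rnf43, Dkk1 and the single markers were named after their values were seen. The 3 comparisons between related genes were added after the values were seen.

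No 2 arrays were alike. After removal of the genotype means, arrays sharing a number correlated at 0.427, 0.354 and 0.595, so the numbers of the titles pair the arrays, though their meaning is not stated. The fit was tested on simulated data of 20841 probe sets. Alternatives were the replicate block, replicate 3 against the others as a block (the array batch block), replicates 1 and 2 alone, each array left out, quantile normalization, median centring, a pseudocount of 16, no filter, a filter at log2 of 6 and an intensity trend.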

Additional observations from a re-analysis of the deposited data

Results flagged for a closer look

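Of the 8 untested probe sets, 1 of Axin2 and 1 of Btrc were under the filter on every array and yet had all DKO arrays above all wild-type arrays. Among tested probe sets 7.57% separated in that direction, and the share under the filter was not computed. For Axin2 (1421341_at) the mean log2 intensity was 3.40 in DKO and 1.86 in wild-type cells, a difference of 1.54, with pairs at 1.59, 1.59 and 1.46. With no filter limma gave it an adjusted p of 0.0407. For Btrc (1417325_at) the means were 3.24 and 2.41, with pairs at 0.22, 1.26 and 1.00 and an adjusted p of 0.294 with no filter. The wild-type intensities of these 2 probe sets were 3 to 6 and the DKO ones 7 to 12, as rounded whole numbers, on arrays with a lower quartile of 4 and a median of 10 to 11.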

How the results depend on the processing

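The count of 675 probe sets that passed over the whole table became 1995 with the replicate number as a block, 1117 with replicate 3 against the others as a block (the array batch block), 440 with replicates 1 and 2 only, 373 with the filter at log2 of 6 and 290 to 604 when each array was left out in turn. The count among the 9 genes was 1 and became 2, Axin2 and Gsk3a, with the replicate block and with the batch block (Gsk3a at -1.38, adjusted p = 0.00646 and 0.0223). With no filter it was also 2, both of them Axin2 probe sets, since 1421341_at was then tested. In the other 12 alternatives it was 1. The block changed no other call among the 9 genes. Of the pathway partners 0 passed, 3 with the replicate block, 1 with the batch block (Csrnp1) and 0 to 1 without an array (Siah2, without DKO replicate 3). Over replicates 1 and 2 alone the sign turned for Gsk3b 1434439_at (0.32) and Ctnnb1 1420811_a_at and 1450008_a_at (0.018 and 0.0024). Leaving out an array gave ranges across 0 for Gsk3b 1434439_at (-0.33 to 0.31), Csnk1a1 1424827_a_at (-0.33 to 0.10) and 1428537_at (-0.20 to 0.0053), Apc 1420956_at (-0.18 to 0.20), 1420957_at (-0.61 to 0.067), 1435543_at (-0.37 to 0.012) and 1450056_at (-0.037 to 0.27), Axin1 1426966_at (-0.037 to 0.52), Ctnnb1 1450008_a_at (-0.33 to 0.031) and Fbxw11 1437468_x_at (-0.21 to 0.042). None of these passed in any fit, and the cause was not tested. The remaining 351 of 369 recomputed differences kept direction and call. The filter at log2 of 6 kept 19 of the 25 probe sets. With 3 arrays per genotype, changes near 2-fold would mostly not pass the fit without a block. Some did pass with the replicate block, such as Csrnp1 at -0.95.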
